A study of Mus musculus with 17 samples.

Results

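The 8 genes described here encode transcription factors with roles in T cells, and all lie in the first 12 Mb of their chromosomes: Gata3, Tox, Crem, Zeb1, Klf6, Xbp1, Tfe3 and Ikzf1. They were chosen by name and by position, from a table of 47643 gene rows of which 3189 start in that window, because rows near chromosome starts best match their names in this table. RNA had been sequenced from splenic regulatory T cells (Tregs), sorted as Foxp3-GFP+ cells after CD4+ enrichment from NOD mice, an inbred strain prone to autoimmune diabetes. The 17 libraries comprised 6 of Nfkbid transgenic mice (NOD-60A Tg+), 5 of mice without Nfkbid (NOD- Nfkbid-KO) and 6 of Control NOD mice, and all 3 groups carried the Foxp3-GFP reporter. Knockout and control libraries were pools of 2 and transgenic libraries were not pooled, so a comparison with the transgenic group is also one of unpooled with pooled material. The library names carry different sample codes for each library, without saying what a code stands for, and the p-values rest on library-to-library spread. Age, sex and the promoter of the transgene are not given in the sources used here. Libraries held 3133388 to 4726615 counts, and 3 counts, the limit that a count of 0 allows, corresponded to 0.623 to 1.04 CPM (counts scaled to a common library total and for RNA makeup). All 8 rows passed the filter on low counts, with 46 counts the lowest value of any of them in any library.

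Transcription factors bind short DNA sequences and set which genes a cell transcribes. Gata3 is a zinc finger factor that directs type 2 helper cells and helps to keep Treg function in inflamed tissue, Tox is a high mobility group factor of thymocyte development and exhausted T cells, and Ikzf1 (Ikaros) is the founding member of a zinc finger family of lymphoid regulators. Crem is a cyclic AMP responsive factor of which several isoforms repress transcription, Zeb1 is a zinc finger repressor that silences Il2 and epithelial genes, and Klf6 is a Krüppel-like factor that is induced early after stimulation. Xbp1 drives the unfolded protein response of the endoplasmic reticulum, and Tfe3 belongs to the MiT/TFE family that controls lysosomal and autophagy genes. Nfkbid, the gene that the study adds or removes, encodes IkBNS, a nuclear IkB family protein that acts on NF-kB target genes.

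Promoter sequence is shown for Klf6, the 1 row called in 2 comparisons (below) that has an entry in the RefSeq promoter table, and for Xbp1, the row nearest to a call in knockout libraries. Capitals mark CCAAT boxes (CCAAT), GC boxes (GGGCGG), the E-box of the MiT/TFE factors (CACGTG), ZEB boxes (CACCTG) and Ikaros cores (TGGGAA), on either strand. Each is 300 bases long and ends shortly after the annotated start, 5′ to 3′ on the plus strand of GRCm38.p6, chr13:5861239-5861538 for Klf6 and chr11:5520391-5520690 for Xbp1.
Klf6: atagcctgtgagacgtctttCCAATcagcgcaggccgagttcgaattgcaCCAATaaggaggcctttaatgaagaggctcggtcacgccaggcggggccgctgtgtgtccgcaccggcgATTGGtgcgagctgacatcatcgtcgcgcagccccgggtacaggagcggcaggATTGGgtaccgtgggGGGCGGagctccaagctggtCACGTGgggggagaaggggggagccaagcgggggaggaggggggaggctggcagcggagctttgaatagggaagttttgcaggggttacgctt
Xbp1: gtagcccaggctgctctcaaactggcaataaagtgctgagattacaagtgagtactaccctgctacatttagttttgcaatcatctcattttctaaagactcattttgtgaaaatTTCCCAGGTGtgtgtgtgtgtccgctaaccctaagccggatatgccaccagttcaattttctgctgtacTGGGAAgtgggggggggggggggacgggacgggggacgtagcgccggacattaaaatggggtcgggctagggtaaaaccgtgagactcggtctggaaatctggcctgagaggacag

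The Klf6 promoter held 4 CCAAT boxes, whose first bases lay at -230, -200, -131 and -78 from the start, a GC box at -63 and a CACGTG E-box at -43. Of the 32851 promoters of this length in the table, 37.4% held a CCAAT box, 35.7% a GC box and 7.15% a CACGTG E-box. The Xbp1 promoter held Ikaros cores at -135 and -66 and a ZEB box at -131, the first core overlapping the ZEB box. Ikaros cores stood in 25.6% and ZEB boxes in 20.2% of promoters. Among 7 promoters of 5 of the genes (Gata3, Klf6, Xbp1, Tfe3 and Ikzf1), GC boxes stood in those of Gata3 and Klf6. They also stood in the upstream, but not the downstream, promoter of Tfe3 and of Ikzf1. None of the 7 held the CRE (TGACGTCA, 1.79% of promoters) or a GATA site (AGATAA, 11.2%) on either strand. The motif matches describe letters in these windows and are not measured binding. GC content was 63.0% for the Klf6 and 51.0% for the Xbp1 promoter, against a median of 52.7%.

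Row names need care in this table. B2m and Pkm, at 122.1 and 59.7 Mb of their chromosomes, had 0 counts in every library, and Actb had at most 7 and Eef1a1 at most 2, although nearly all cells transcribe these genes. Rps9 at 3.7 Mb and Rps20 at 3.8 Mb held 6182 to 11258 and 3803 to 6514 counts. When the exons of every row were moved along the chromosome by 0.45 kb per Mb, the agreement of counts with the annotated exon bases under them (mean Spearman rank correlation of 20 chromosomes, across 45617 rows, which are not independent replicates) was 0.537, against 0.428 for the same move in the opposite direction and 0.551, the highest value, for exons left in place. Over the 3189 rows of the first 12 Mb the values were 0.53, 0.509 and 0.562 in the same order, again highest in place. Exons left in place are scored on each row's own exon length, which the moved ones are not, so that the scan does not settle whether these rows are displaced. If that move applied to the 8 rows, 43.5% of the exon bases of Tfe3, 30.2% of Klf6, 21.4% of Xbp1, 10.4% of Crem and 9.3% of Zeb1 would still lie on their own gene's exons, and 0% of Gata3, Tox and Ikzf1. Gene names below are therefore those of the rows. A row may hold only part of its gene's exon reads, or, for Gata3, Tox and Ikzf1 under that move, none of them.

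The labelled cell type was checked on its markers. Foxp3, the factor that defines Tregs, held 792 to 1568 counts and averaged 318.4, 313.0 and 346.5 CPM in transgenic, knockout and control libraries, and Il2ra, which encodes the interleukin-2 receptor alpha chain CD25, held 406 to 666 counts. Both lie near chromosome starts, at 7.6 and 11.6 Mb. The 6 Treg markers together reached 1596.8 to 1782.5 CPM with the transgene, 1333.0 to 1413.7 without Nfkbid and 1279.6 to 1400.7 in controls, higher in every transgenic library than in any other. Foxp3 and Il2ra did not share this order. Mean Foxp3 was highest in controls, and Il2ra averaged 142.3, 174.5 and 133.9 CPM in transgenic, knockout and control libraries. The sum also holds rows farther along their chromosomes, such as Ikzf2 at 69.5 Mb, so it does not measure Treg identity. The 6 T cell markers summed to 775.7 to 1147.0 (transgenic), 720.3 to 1207.6 (knockout) and 690.2 to 797.6 CPM (control). Of these, the Cd4 row at 124.9 Mb held 213 to 367 counts. The Cd3e row at 45.0 Mb, which every T cell should also fill, had at most 11 counts. Since such rows differ among themselves, marker rows farther along a chromosome do not test the cell type. The Nfkbid row held 8 to 33 counts, with means of 8.79, 4.75 and 4.57 CPM in transgenic, knockout and control libraries, and does not check the genotype labels. Markers of B cells (6, with Cd79b and Ebf1 at 0) summed to 177.6 to 270.0 (transgenic), 170.6 to 258.6 (knockout) and 213.9 to 300.8 CPM (control), and the 6 myeloid markers to 85 to 106.7, 84.5 to 113.4 and 79.7 to 101.3 CPM. The 3 dendritic cell markers summed to 71.3 to 84.6, 79.9 to 92.7 and 60.3 to 78.6 CPM, every knockout library above every control, as for Xbp1 and Zeb1 below. The limit on row names applies to these sums too, and the part of such cells in the Xbp1 and Zeb1 differences was not tested. The 4 NK cell markers summed to 428.2 to 799.8 CPM in transgenic against 15.9 to 31.6 and 18 to 24.9 in the other groups, through the Tyrobp row, a neighbour of Nfkbid on chromosome 7. The part of this in the results below was not tested.

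Transgenic and control libraries were compared to see what changes when Nfkbid is added, and 3 of the 8 rows passed the test: Tox and Crem rose and Klf6 fell. A row was called at an adjusted p under 0.05 (edgeR's quasi-likelihood test, Benjamini-Hochberg adjustment over all 9986 rows tested). In this comparison 7.4% of all tested rows were called, 5.23% higher and 2.17% lower. Of the 946 tested rows of the first 12 Mb, 14.5% were called, 11.9% higher and 2.54% lower. Neither Tox nor Crem overlapped between the groups, and the same held for 7.11% of all tested rows, 4.66% higher and 2.45% lower. In bulk RNA of sorted cells, fewer cells of a type and less RNA per cell cannot be told apart.

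**Figure D1:**
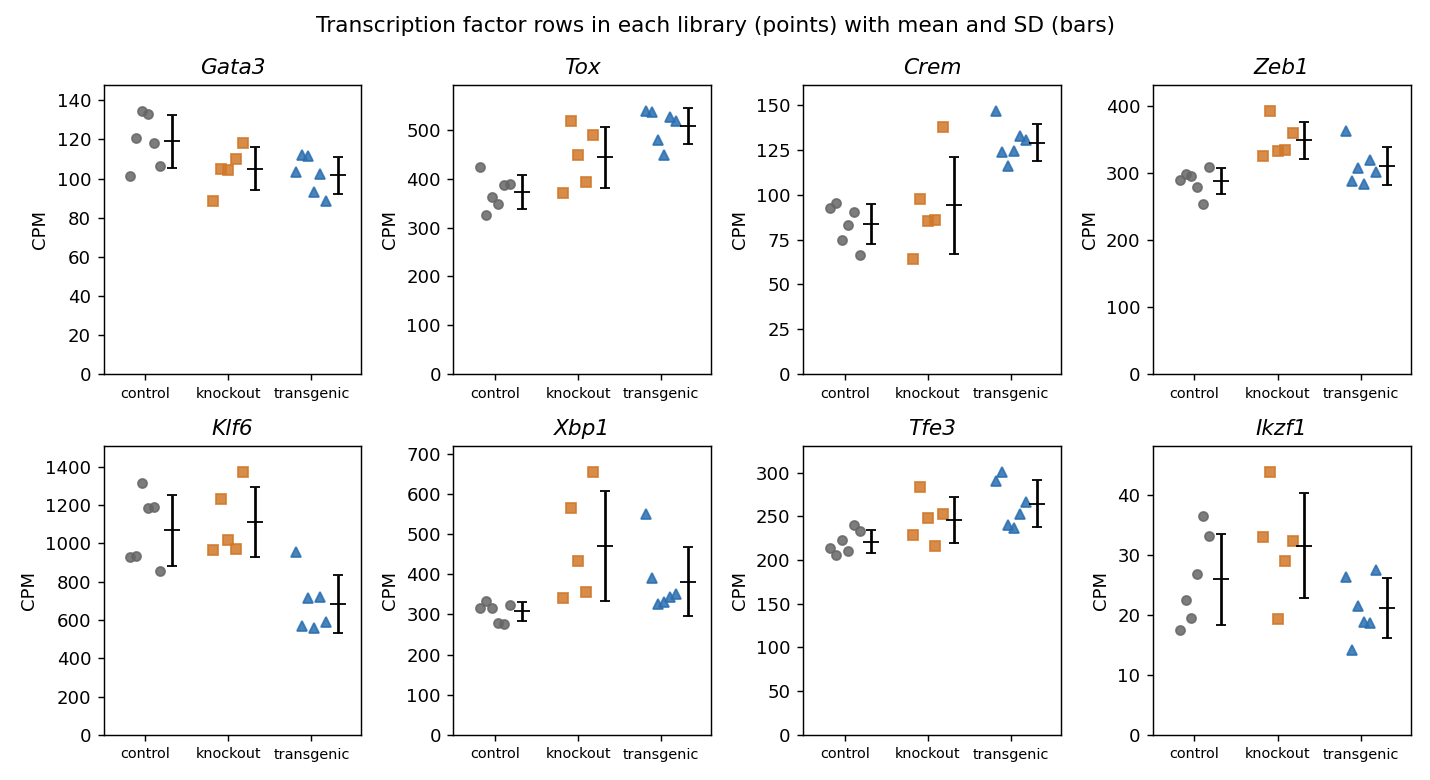
CPM of each of the 8 rows in every library, by genotype group (6 control, 5 knockout and 6 transgenic libraries as points, mean and SD as bars, each axis from 0). The 6 transgenic libraries lie above all controls for Tox and Crem, and Klf6 lies below all controls in 5 of the 6.

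Tox (ENSMUSG00000041272, chromosome 4, 6686353 to 6991557, minus strand) ran from 449.5 to 538.2 CPM in transgenic libraries, with a median of 523.2, and from 325.9 to 423.4 in controls, with a median of 375.5. Every transgenic library was above every control. The row was higher by 0.45 on the log2 scale (SE 0.1, adjusted p = 0.005), a fold of 1.36. In the 5 knockout libraries it held 371.1, 517.5, 448.5, 392.7 and 490.1 CPM. Knockout replicates 2, 3 and 5 were above the highest control and replicates 1 and 4 within the controls' range, and the difference of 0.25 (SE 0.1, adjusted p = 0.158) from controls was not called. Transgenic against knockout gave 0.2 (SE 0.1, adjusted p = 0.231), with 4 of 6 transgenic libraries above the highest knockout library.

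Crem (ENSMUSG00000063889, chromosome 18, 3266048 to 3337748, minus strand) ran from 116.1 to 146.5 CPM in transgenic libraries, with a median of 127.4, and from 66.3 to 95.3 in controls, with a median of 86.5. This was the largest proportional rise among the 8 rows against control, 0.63 on the log2 scale (SE 0.14, adjusted p = 0.006), a fold of 1.54. Knockout libraries held 64.1, 97.6, 85.2, 85.8 and 137.5 CPM, and spread more than either other group, with a coefficient of variation of 28.8% against 8.03% in transgenic and 13.5% in control libraries. Knockout replicate 5 alone reached the transgenic range. Against knockout the transgenic libraries were higher by 0.46 (SE 0.15, adjusted p = 0.0496), a call that ended in 20 of 30 alternatives, 15 of them with a single library left out, with values of 0.2 to 0.79. The table sums all Crem transcripts, so activating and repressing isoforms were not separated.

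Klf6 (ENSMUSG00000000078, chromosome 13, 5861482 to 5870394, plus strand) was the highest of the 8 rows and the only one called lower. It ran from 558.0 to 953.5 CPM in transgenic libraries, with a median of 652.6, and from 854.6 to 1313.7 in controls, with a median of 1058.3. Transgenic replicate 1, at 953.5 CPM, was the 1 transgenic library inside the controls' range, and the other 5 held 558.0 to 721.3. The row fell by 0.64 on the log2 scale (SE 0.14, adjusted p = 0.006), a fold of 0.64. Knockout libraries held 963.3, 1228.4, 1017.0, 967.4 and 1371.8 CPM, all above the highest transgenic library, and the fall against knockout was of the same order, -0.7 (SE 0.15, adjusted p = 0.003), with all 6 transgenic libraries below. Knockout and control libraries overlapped, with a difference of 0.06 (SE 0.15, adjusted p = 0.842), with an approximate confidence interval of -0.23 to 0.34.

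**Figure D2:**
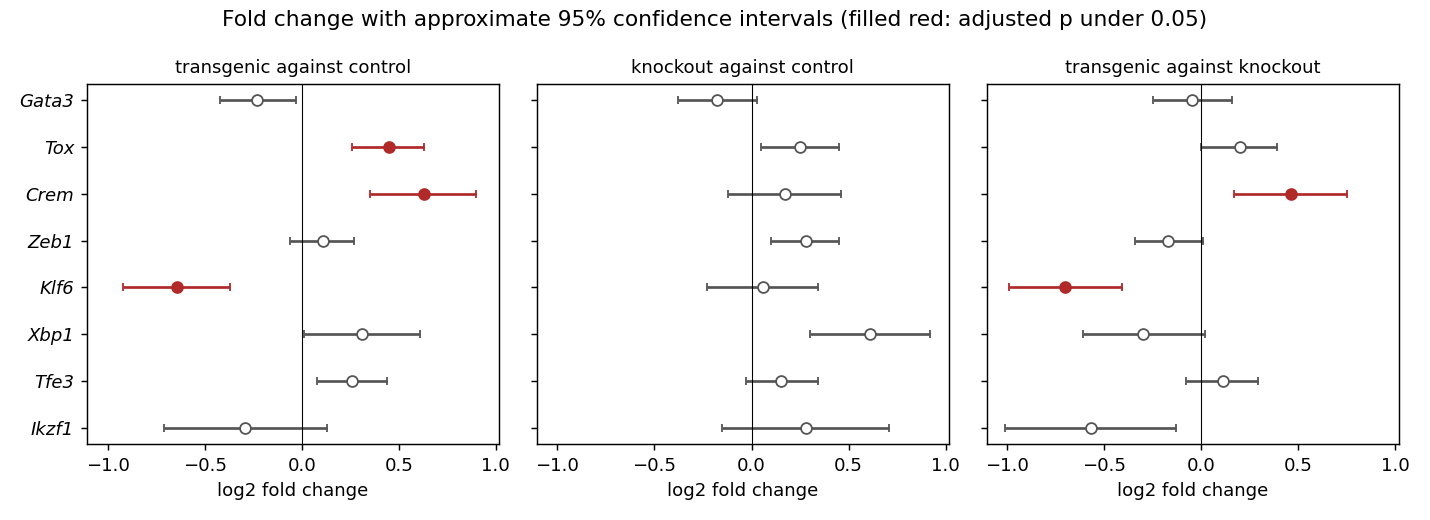
Log2 fold change of each row in the 3 comparisons, with bars for approximate confidence intervals (from the SE of the edgeR fit; filled red points passed an adjusted p of 0.05). Tox, Crem and Klf6 are called against control, and Crem and Klf6 against knockout, with no row called in knockout against control.

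Of the other 5 rows, Tfe3 came nearest to a call in transgenic against control libraries. Tfe3 (ENSMUSG00000000134, chromosome X, 7762560 to 7775202, plus strand) ran from 237.2 to 300.9 CPM in transgenic libraries and from 205.8 to 240.3 in controls, with 5 of 6 transgenic libraries above the highest control. The difference was 0.26 on the log2 scale (SE 0.09, adjusted p = 0.091). It was called in 4 of 31 alternatives, which were DESeq2, the fit of the 2 groups alone, the fit without knockout replicates 2, 3 and 5, and the fit of the rows of the first 12 Mb alone. Gata3 (ENSMUSG00000015619, chromosome 2, 9857078 to 9890034, minus strand) had medians of 102.8, 104.8 and 119.5 CPM in transgenic, knockout and control libraries. All 6 transgenic and all 5 knockout libraries were below the controls' median, while the groups overlapped, and the log2 fold changes of -0.23 (SE 0.1, adjusted p = 0.215) and -0.18 (SE 0.11, adjusted p = 0.313) were not called. Against control, Gata3 was called in transgenic libraries when the rows of the first 12 Mb alone were fitted (-0.27, adjusted p = 0.046). The 2 comparisons share their controls. Zeb1 in transgenic against control libraries gave 0.11 (SE 0.08, adjusted p = 0.561), Xbp1 gave 0.31 (SE 0.15, adjusted p = 0.278) and Ikzf1 gave -0.29 (SE 0.22, adjusted p = 0.523).

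Knockout and control libraries were compared to see what changes when Nfkbid is lost, and 0 of the 8 rows were called by edgeR. Of all tested rows 1.89% (0.881% higher, 1.01% lower) were called, and of those of the first 12 Mb 4.23% (1.16% higher, 3.07% lower). By edgeR 3 of the 8 had an unadjusted p under 0.05. The share of all rows at that threshold was not counted, so this count does not show an excess among the 8. DESeq2 called 2 of the 8, Zeb1 and Xbp1, and it called 573 of all 9986 rows. With limma and voom 0 of the 8 and 135 of all 9986 rows were called. Zeb1 and Xbp1 did not overlap between knockout and control libraries, and the same held for 2.74% of all tested rows, 1.08% higher and 1.66% lower. Xbp1 (ENSMUSG00000020484, chromosome 11, 5520659 to 5525893, plus strand) held 339.7, 565.7, 432.8, 354.7 and 654.8 CPM in knockout libraries, all above the controls, which ran from 276.8 to 334.3. The log2 fold change was 0.61 (SE 0.16, adjusted p = 0.0509), a fold of 1.53, and the row was called in 8 of 31 alternatives. Zeb1 (ENSMUSG00000024238, chromosome 18, 5591860 to 5775467, plus strand) held 325.5, 391.9, 332.1, 333.5 and 358.8 CPM in knockout libraries and 253.8 to 309.0 in controls. The difference was 0.28 on the log2 scale (SE 0.09, adjusted p = 0.093). Ikzf1 (ENSMUSG00000018654, chromosome 11, 11685003 to 11772926, plus strand), the lowest of the rows at 46 to 135 counts, held 33.0, 43.9, 19.4, 29.1 and 32.4 CPM in knockout, 14.2 to 27.6 in transgenic and 17.5 to 36.5 in control libraries. Neither the difference of knockout from control (0.28, SE 0.22, adjusted p = 0.45) nor that of transgenic from knockout (-0.57, SE 0.22, adjusted p = 0.108) was called.

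The Xbp1 row moved with measures of library makeup. Its 3 highest libraries were knockout replicates 5 and 2 and transgenic replicate 1, at 654.8, 565.7 and 550.0 CPM. These were also the 3 libraries with the lowest TMM factors (the scaling that corrects for differences in RNA makeup), 0.859, 0.864 and 0.864 against 0.951 to 1.09 elsewhere. CPM is divided by this factor, so a low factor by itself raises every CPM of its library. Before scaling, the row's counts in these 3, 2000, 1738 and 1592, were also its highest. Mitochondrially encoded rows took 28.16, 25.56 and 24.81% of the counts of these 3 libraries. Knockout replicate 3, next at 432.8 CPM, had 25.31%, whereas the other 13 libraries had 19.66 to 24.05%. Knockout replicates 2, 3 and 5 also had fewer rows detected, 13466 to 13793 against 15024 to 17352. Without these 3 libraries the Xbp1 difference between knockout and control was 0.17 (adjusted p = 0.870), and Zeb1 gave 0.2 (adjusted p = 0.725). The part of mitochondrial share and TMM factor in these differences was not tested.

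**Figure D3:**
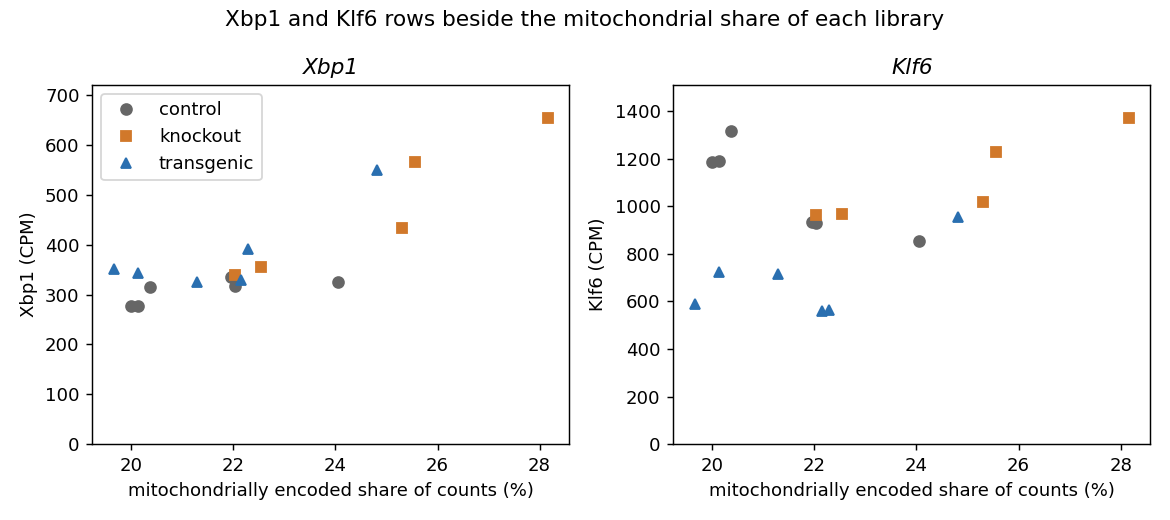
CPM of Xbp1 (left) and Klf6 (right) against the share of counts on mitochondrially encoded rows, 1 point per library and marked by genotype group. Xbp1 is highest in the 3 libraries at 24.81, 25.56 and 28.16%, and Klf6 in transgenic libraries lies low at 19.66 to 22.29% and higher at 24.81%.

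The same libraries bear on the other comparisons. Transgenic replicate 1 was the highest transgenic library for Klf6, Xbp1, Crem, Zeb1 and Tox. Without it the Klf6 fall against control was -0.76, the farthest from 0 of 31 alternatives, which reached from -0.76 to -0.44. In transgenic against knockout libraries, leaving out knockout replicates 2, 3 and 5 gave -0.49 for Klf6 (adjusted p = 0.103) and ended that call, while Crem gave 0.79 (adjusted p = 0.002) and Tox 0.42 (adjusted p = 0.032), which was then called. Xbp1 changed direction there, from -0.3 to 0.15. Against control, Tox, Crem and Klf6 remained called without the 3 libraries, at 0.46, 0.63 and -0.63. These knockout libraries enter that comparison only through the shared scaling, filter and spread, so leaving them out could hardly change the values.

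A running number in the column names, whose meaning the labels do not give, falls into 2 ranges. The lower range holds all 6 transgenic libraries with control replicates 1 and 2, and the higher range all 5 knockout libraries with control replicates 3 to 6. Control replicates 1 and 2 held 423.4 and 325.9 CPM of Tox, 92.3 and 95.3 of Crem and 930.2 and 932.3 of Klf6. Within the lower range the log2 fold changes of transgenic against control were 0.44 for Tox (adjusted p = 0.157), 0.46 for Crem (adjusted p = 0.110) and -0.44 for Klf6 (adjusted p = 0.327), all without a call, and with the range as a term in the fit they were 0.44, 0.46 and -0.45 (adjusted p = 0.177, adjusted p = 0.458 and adjusted p = 0.449). For Tox this was close to the 0.45 of all libraries, and for Crem and Klf6 it was nearer to 0, with 2 controls in place of 6 within the range. Within the higher range Xbp1 in knockout against control gave 0.65 (adjusted p = 0.239). Transgenic and knockout libraries share no range, so that comparison and the range cannot be told apart within a range; with the range as a term Crem gave 0.2 and Klf6 -0.41, and 0 of the 8 rows were called. These fits were chosen after seeing the data.

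**Figure D4:**
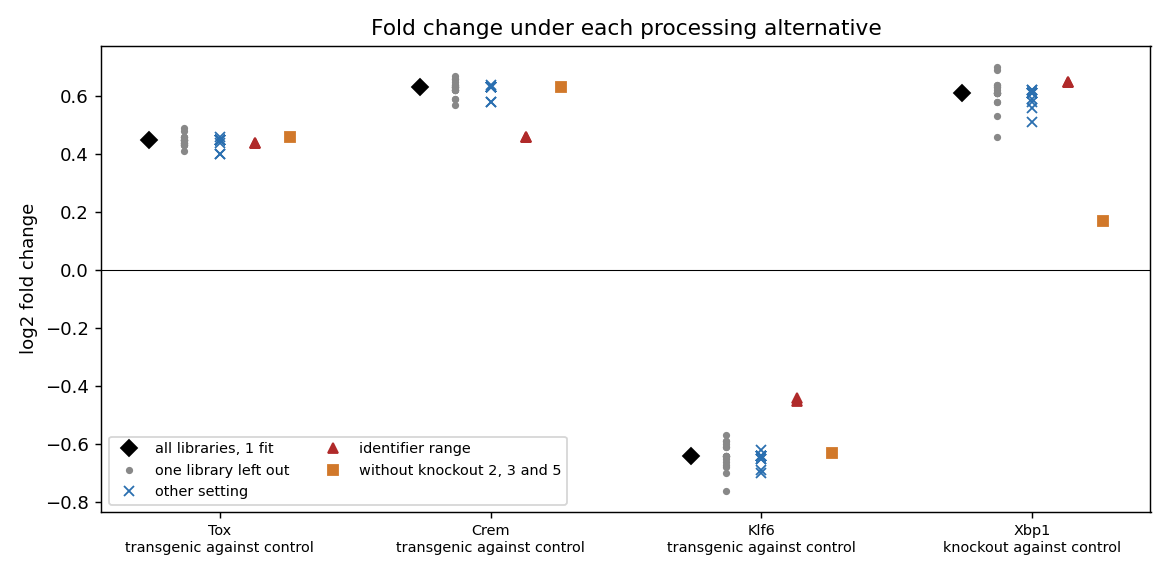
Log2 fold change of 4 results under each processing alternative: all libraries in 1 fit (diamond), 1 library left out (dots), other settings (crosses), the identifier ranges (triangles) and without knockout replicates 2, 3 and 5 (squares). Tox stays at 0.4 to 0.49, Crem and Klf6 come closer to 0 within the identifier ranges, and Xbp1 drops to 0.17 without the 3 knockout libraries.

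In the third comparison, of transgenic with knockout libraries, 2 of the 8 rows were called, where 10.7% of all tested rows (6.34% higher, 4.33% lower) and 18.5% of those of the first 12 Mb (12.6% higher, 5.92% lower) were. These were Crem and Klf6 as above. Klf6 alone did not overlap between the groups, and the same held for 6.2% of all tested rows, 4.24% higher and 1.96% lower. Zeb1 gave -0.17 (SE 0.09, adjusted p = 0.242), with 5 knockout libraries at or above 325.5 CPM and 5 of 6 transgenic ones at or below 318.9. Gata3 gave -0.05 (SE 0.11, adjusted p = 0.832) and Tfe3 gave 0.11 (SE 0.09, adjusted p = 0.519).

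Levels were compared between rows per kb of annotated exon, with the exons of all transcripts of a gene merged, since longer transcripts collect more reads. If the move described above applied, unequal shares of these bases would lie on own exons, so the order of the rows may not be that of the genes. Klf6 was highest at a median of 217.1 CPM per kb over the 17 libraries (127.1 to 312.4), followed by Xbp1 at 104.6 (85.2 to 201.6) and Tox at 58.9 (42.8 to 70.7). Each of these exceeded the next in 17 of 17 libraries. Zeb1, Gata3 and Tfe3 lay close together at 29.9, 26.7 and 25.9 CPM per kb. Zeb1 exceeded Gata3 in 12 and Gata3 exceeded Tfe3 in 9 of 17 libraries, so the order of these 3 was within their spread. Crem followed at 16.2 and Ikzf1 at 4.54 CPM per kb, the latter below Crem in 17 of 17 libraries. Between its highest and lowest library Ikzf1 varied most, by 3.09 times, and Tfe3 least, by 1.46 times.

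**Figure D5:**
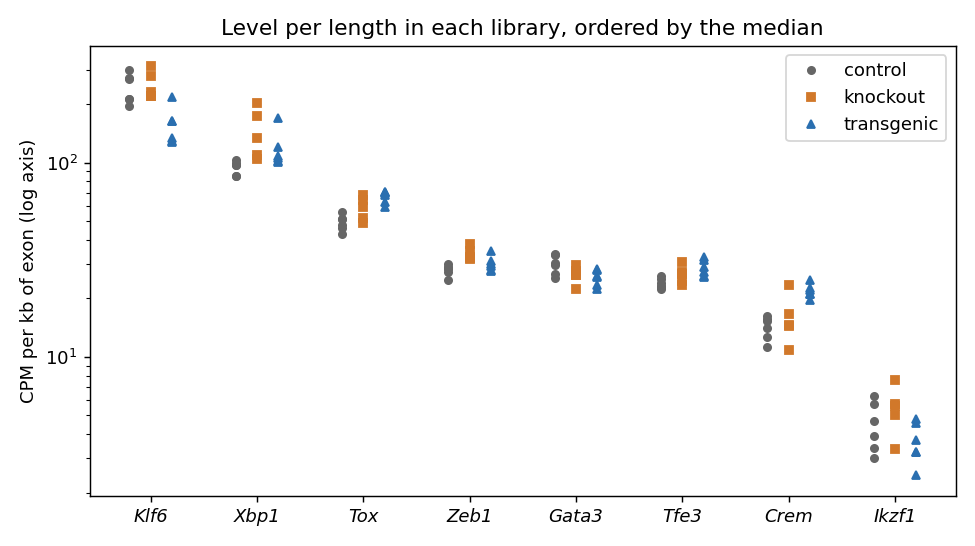
CPM per kb of annotated exon in each of the 17 libraries (log axis), with rows ordered by their median and libraries marked by genotype group. Klf6, Xbp1 and Tox are separate from the rows below them in every library, while Zeb1, Gata3 and Tfe3 share 1 range of 22.2 to 38.2.

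Patterns over the 17 libraries were compared by the root mean square difference of log2 CPM, each row centred on its own mean, so that a small value means parallel profiles. Among the 8 rows the closest pair was Tox and Tfe3, with a difference of 0.12 where Tox itself varied by 0.23 and Tfe3 by 0.16 around their means. The farthest pair was Crem and Klf6, at 0.64. Of 763 other protein-coding rows of the first 12 Mb, the row nearest to Crem was Zc3h12d, which encodes a CCCH zinc finger RNase, at 0.19. Zc3h12d rose with the transgene by 0.63 against control (adjusted p = 0.001) and by 0.63 against knockout (adjusted p = 0.002). Rows picked here for a parallel profile over the same 17 libraries tend to share its group differences. Their calls, or the lack of them, are therefore not separate results. Nearest to Klf6 were Carns1 and Prkcq, which encodes the T cell receptor kinase protein kinase C theta, both at 0.2, and Chka at 0.21. Carns1 fell against control by 0.87 (adjusted p = 1.7e-04) and Prkcq by 0.47 (adjusted p = 0.015), and Chka, not called there, gave a close value (-0.44, adjusted p = 0.070). The nearest rows to Xbp1 were Casd1 at 0.1, Dnaja3 at 0.11 and Rab18 at 0.12, none of them called in any comparison. Tox was nearest to Tfe3, Rtn3 (0.12) and Prpf18 (0.13), Zeb1 to Eif4enif1 (0.07), Hnrnpul2 (0.09) and Tmem123 (0.1), and Tfe3 to Ascc2 (0.11), Gm45902 (0.12) and Zmiz2 (0.12). Gata3 was nearest to Mark2, Men1 and Rbm4b, all at 0.14, little less than its own variation of 0.17. Ikzf1 was nearest to Prkcq, Osm and Mus81, at 0.28 to 0.3 against its own 0.42.

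A list of other transcription factors and chromatin proteins of the same chromosome windows has 38 rows, of which 29 were tested. It also holds Lif, a cytokine, and Sf1, a splicing factor. In transgenic against control libraries 1 was called higher and 1 lower, where 7.4% of all tested rows and 14.5% of those of the first 12 Mb were called, with a median log2 fold change of -0.12 against 0.05 over the 946 tested rows of the first 12 Mb. The row called higher was Lif, at 44.7 against 18 CPM (1.31, SE 0.15, adjusted p = 4.0e-06), and the lower was Zfp438, a zinc finger gene, at 11.9 against 18.4 CPM (-0.63, SE 0.18, adjusted p = 0.037). Lif was also the 1 row called in knockout against control (0.69, SE 0.16, adjusted p = 0.028), where 4.23% of the rows of the first 12 Mb were called. Between transgenic and knockout libraries, where 18.5% of the rows of that window were called, Lif was higher (0.62, adjusted p = 0.012), and 3 rows were lower, the zinc finger factor Patz1 (-0.34, adjusted p = 0.015), the chromatin remodeller Chd7 (-0.47, adjusted p = 0.023) and the basic helix-loop-helix factor Tfap4 (-0.6, adjusted p = 0.046).

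A list of 35 other T cell transcription factors from anywhere in the genome had 26 tested rows, whose names depend more on the position problem above. In transgenic against control libraries Ikzf2 (Helios), a relative of Ikzf1 in the same zinc finger family, rose by 0.48 (adjusted p = 0.021) and the chromatin organiser Satb1 fell by 0.5 (adjusted p = 0.002), and in knockout against control 1 row was higher, Ikzf2 at 0.53 (adjusted p = 0.041), and 1 lower, the Prdm1 row at -1.82 (adjusted p = 0.001). Transgenic against knockout gave 3 higher rows and 0 lower, Prdm1 (2.53), Irf4 (0.66) and Ikzf3 (0.92). Of all tested rows 7.4%, 1.89% and 10.7% were called in the 3 comparisons, the last with 6.34% higher and 4.33% lower. The median log2 fold changes of this list were -0.13, -0.19 and 0. Among 28 family relatives of the 8 genes, 14 were tested, and besides Ikzf2 and Ikzf3 only Atf1, which binds the same CRE as Crem, was called in any comparison, at 0.81 (adjusted p = 0.025) for transgenic against knockout.

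Lists were also compiled for pathways of 4 of the factors, and their counts stand beside 7.4%, 1.89% and 10.7% of all tested rows called in transgenic against control, knockout against control and transgenic against knockout. Of 28 rows of the unfolded protein response, in which Xbp1 acts, 13 were tested and 0 were called in knockout against control (median 0.22, 0 higher and 0 lower by edgeR), and Hyou1, a chaperone of the endoplasmic reticulum with the smallest p there, gave 0.45 (SE 0.19, adjusted p = 0.178). In transgenic against control Pdia6 (0.7, adjusted p = 0.008) and Ssr1 (0.41, adjusted p = 0.015) were higher (list median 0.17), and against knockout Ssr1 was the 1 row called, higher by 0.52 (adjusted p = 0.003), with a list median of -0.1. Of 26 lysosome and autophagy rows linked to Tfe3, 19 were tested, and 1 was called in transgenic against control, Lamp2, a lysosomal membrane protein, at 0.68 (adjusted p = 0.006), with a list median of -0.04. Against knockout Lamp2 was higher (0.89, adjusted p = 7.7e-04) and Ctsa and Mcoln1, a lysosomal protease and a lysosomal calcium channel, were lower (-0.56 and -0.31, adjusted p = 0.027 and adjusted p = 0.047). Of 22 cyclic AMP pathway rows linked to Crem, 15 were tested, and Pde4d, a phosphodiesterase that degrades cyclic AMP, fell by 0.5 against control (adjusted p = 0.008) and by 0.52 against knockout (adjusted p = 0.007), while Atf1, also on this list, was higher against knockout as above. The list medians were -0.12 and 0.1. Of 15 rows linked to Gata3 and type 2 responses, 7 were tested, with Il4ra, the interleukin-4 receptor, higher by 0.59 (adjusted p = 6.4e-04) and Il1rl1, the interleukin-33 receptor ST2, lower by 0.6 (adjusted p = 0.002) in transgenic against control libraries (list median 0.03). Against knockout Notch1, a receptor that acts upstream of Gata3, was higher by 1.05 (adjusted p = 0.045). In knockout against control Il1rl1 gave -0.36 (adjusted p = 0.105), and 0 rows of this list, of the lysosome list and of the cyclic AMP list were called (medians -0.3, -0.02 and -0.09). Rows of these lists that lie far from a chromosome start carry names whose match to the gene was not established.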

How the data were processed

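Per the labels, poly(A) RNA was sequenced with 67 bp reads and a 9 bp molecular identifier, and per the submitters' processing notes Bowtie2, GRCm38 and edgeR were used. The authors deposited 1 table of expected counts per gene row (5.87% of values were not whole numbers). No source used here says whether the identifiers served to remove duplicates. Counts were rounded and fitted for all 17 libraries together with edgeR 4.0.16 (R 4.3.3): filterByExpr (9986 rows tested), TMM scaling and quasi-likelihood F tests between genotype groups, called at a Benjamini-Hochberg adjusted p under 0.05. CPM uses TMM-scaled totals. Genes were placed by the GRCm38 annotation, and promoters are from RefSeq (GRCm38.p6). On simulated data 56%, 54% and 61% of changes of 1 on the log2 scale were recovered in transgenic against control, knockout against control and transgenic against knockout. Alternatives included DESeq2 1.42.0 and limma 3.58.1. The 8 genes, the lists and their tests were chosen with earlier results of these data known. Genes named were the 8, up to 4 called rows per list and comparison by p (or the row of smallest p), and the 3 rows of most similar pattern for each of the 8.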

Additional observations from a re-analysis of the deposited data

Results flagged for a closer look

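Of 36 groups of values examined (each of the 8 rows and 4 library measures, by genotype group), 3 had a library far from the others, where chance alone sets apart about 1 in 20 groups. Transgenic replicate 1 held 550.0 CPM of Xbp1, against 325.5 to 391.3 in the other 5 transgenic libraries. The same library had a TMM factor of 0.864, against 0.995 to 1.04. Control replicate 1 had 4726615 counts, against 3133388 to 3535404 in the other 5 controls.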

How the results depend on the processing

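Of the 8 rows, 3 were called in transgenic against control, and 3 to 3 when any 1 library was left out. The number was 5 when only rows of the first 12 Mb were fitted, a fit that called 186 of its 945 rows. It was 0 with the identifier range as a term and 0 within the lower range, both chosen after seeing the data, and Ikzf1 reversed to 0.09 in each of these 2 fits. In knockout against control the 0 calls became 1 with RLE scaling, without a filter, with a stricter filter and in the first 12 Mb, and 2 with DESeq2, with 0 to 1 on leaving out 1 library (Xbp1, without transgenic replicate 1, knockout replicate 1 or knockout replicate 4). The fit of the first 12 Mb called 69 of its 945 rows there. Klf6 reversed to -0.04 in the first 12 Mb, -0.03 without knockout replicate 5, -0.03 with the range term, -0.04 within the higher range and -0.14 without knockout replicates 2, 3 and 5, and Crem to -0.01 without knockout replicate 5 and -0.16 without the 3 libraries. Leaving out 1 library gave -0.03 to 0.12 for Klf6 and -0.01 to 0.28 for Crem. In transgenic against knockout the 2 calls became 1 (Klf6) with RLE or upper-quartile scaling, with the 2 groups alone and with the replicate block, 0 with the range term, and 1 to 2 on leaving out 1 library. They became 3 in the first 12 Mb (Tox added, 0.24, adjusted p = 0.014), a fit that called 234 of its 945 rows. Counts of 2 that held other rows were Klf6 and Xbp1 without transgenic replicate 1 (Xbp1 -0.43, adjusted p = 0.043), Klf6 and Ikzf1 without knockout replicate 3 (Ikzf1 -0.7, adjusted p = 0.049), and Tox and Crem without knockout replicates 2, 3 and 5. Gata3 reversed there to 0.05 without the 3 knockout libraries and 0.1 with the range term, and Xbp1 to 0.15 without the 3 libraries. The cause was not tested, other than that fewer libraries or rows entered some fits. Replicate numbers did not pair libraries (r of same-numbered libraries -0.517 to 0.364, median 0, with 1 of 16 over 0.1). With the replicate block 3, 0 and 1 rows were called, Crem against knockout giving 0.51 (adjusted p = 0.054). Over all rows, 739 were called in transgenic against control (186 with the range term, 252 within the lower range, 1348 without the 3 knockout libraries, 1226 with the 2 groups alone), and 189 in knockout against control (34 within the higher range, 43 without the 3 libraries, 67 with the block, 76 with the 2 groups alone, 573 with DESeq2, 571 without a filter, 88 to 1124 on leaving out 1 library). In transgenic against knockout 1065 were called (130 with the range term, 632 with the 2 groups alone, 670 with the block, 735 to 1641 on leaving out 1 library). Depth limits Ikzf1 most, at 46 to 135 counts.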
